A study of Homo sapiens with 6 samples.

Results

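The glutathione, NRF2 and ferroptosis defence group consists of 10 genes, chosen for their part in glutathione synthesis, as NRF2 targets or as ferroptosis suppressors. They are GCLC, GCLM, GSR, GPX4, TXNRD1, SRXN1, NQO1, HMOX1, FTH1 and AIFM2. The choice was made with earlier results of these data known. All 10 were found among the 60651 genes of the files and all 10 passed the count filter, as 10 of 29086 genes tested. The cells were SK-N-AS, an established human neuroblastoma cell line without MYCN amplification, stably carrying a tetracycline repressor and a MYCN gene under its control, and kept as single clones under G418 and blasticidin. The 3 control cultures carry the label ETOH and the 3 MYCN-induced cultures the label Tet, for tetracycline, and both were harvested at 120 h. Control cultures therefore carried the same repressor and inducible MYCN gene as induced cultures. Ribosomal RNA-depleted total RNA was sequenced, with 64500589 to 102249336 counted read pairs per library. No cells lacking the inducible gene but given tetracycline were used here, so effects of MYCN and of tetracycline cannot be told apart.

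Glutathione is a small thiol peptide made in successive steps, the first of which is catalyzed by the GCLC and GCLM dimer, and it keeps cells reduced together with the thioredoxin system. NRF2 is a transcription factor that KEAP1 holds at low levels until oxidants or electrophiles release it, after which it binds antioxidant response elements in the promoters and enhancers of its targets. Ferroptosis is an iron-dependent form of cell death driven by lipid peroxides, which GPX4 reduces at the expense of glutathione, and neuroblastoma cells with high MYCN are known to depend on cystine uptake to avoid it.

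MYCN itself was at 30.3, 35.5 and 32.4 CPM (counts scaled to normalized library size) in control replicates 1, 2 and 3 and at 210.7, 221 and 198.5 CPM in the induced replicates, a log2 fold change of 2.68 (± 0.08 standard error, SE, edgeR adjusted p = 4.155e-05). MYCN was thus above every control in each library labelled as induced. Of the neuroblastoma markers, HAND2 (349 to 559 CPM) and GATA3 (99.8 to 144 CPM) were present throughout, as was the mesenchymal marker VIM (360.3 to 474 CPM), whereas TH was at 0.662 to 1.58 CPM. The mesenchymal marker FN1 fell from 60.5, 58.6 and 50.9 CPM to 39.7, 36.3 and 28.4 CPM (edgeR adjusted p = 0.0330; 0.0126 to 0.168 with 1 library left out at a time, highest without control replicate 2). NOTCH2 and the adrenergic markers ISL1 and DBH had log2 fold changes of -0.40, -0.55 and -0.85 that did not pass the test (edgeR adjusted p = 0.149, 0.0562 and 0.147). The part of these marker differences in the results was not tested. PTPRC, PECAM1 and EPCAM, which mark blood, endothelial and epithelial cells, stayed at or below 2.07 CPM. MYCN-induced replicate 3 stood apart from the other libraries. It lay at 45.7 on the first principal component (49.4% of the variance), where induced replicates 1 and 2 lay at 7.7 and 7.8 and the controls from -27.6 to -15.0, and results are given with and without it.

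Of the 10 genes, 3 rose in MYCN-induced cells and none fell at an edgeR adjusted p under 0.05, while over all tested genes 1.02% rose and 2.38% fell. The 3 were TXNRD1, GSR and NQO1, all flavoprotein reductases that draw on NADPH, or for NQO1 on NADH as well. Before adjustment, p was under 0.05 for 5 genes, all of them higher, where over all tested genes 8.13% were higher and 10.6% lower by this measure. The median log2 fold change of the 10 genes was 0.49, against 0.00 over all tested genes, and 9 of the 10 values were above 0. Induced and control values did not overlap for 8 genes, with 7 higher (11.5% of all tested genes) and 1 lower (14.7% of all tested genes). Without MYCN-induced replicate 3 the same 3 genes passed the test (3.68% of all tested genes were then higher), and the median was 0.28, again against 0.00 over all genes. The 10 genes were chosen with earlier results of these data known, so these shares and medians describe them and do not test the group. In bulk RNA, a change in the share of cells that express a gene and a change in RNA per cell cannot be told apart.

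**Figure D1:**
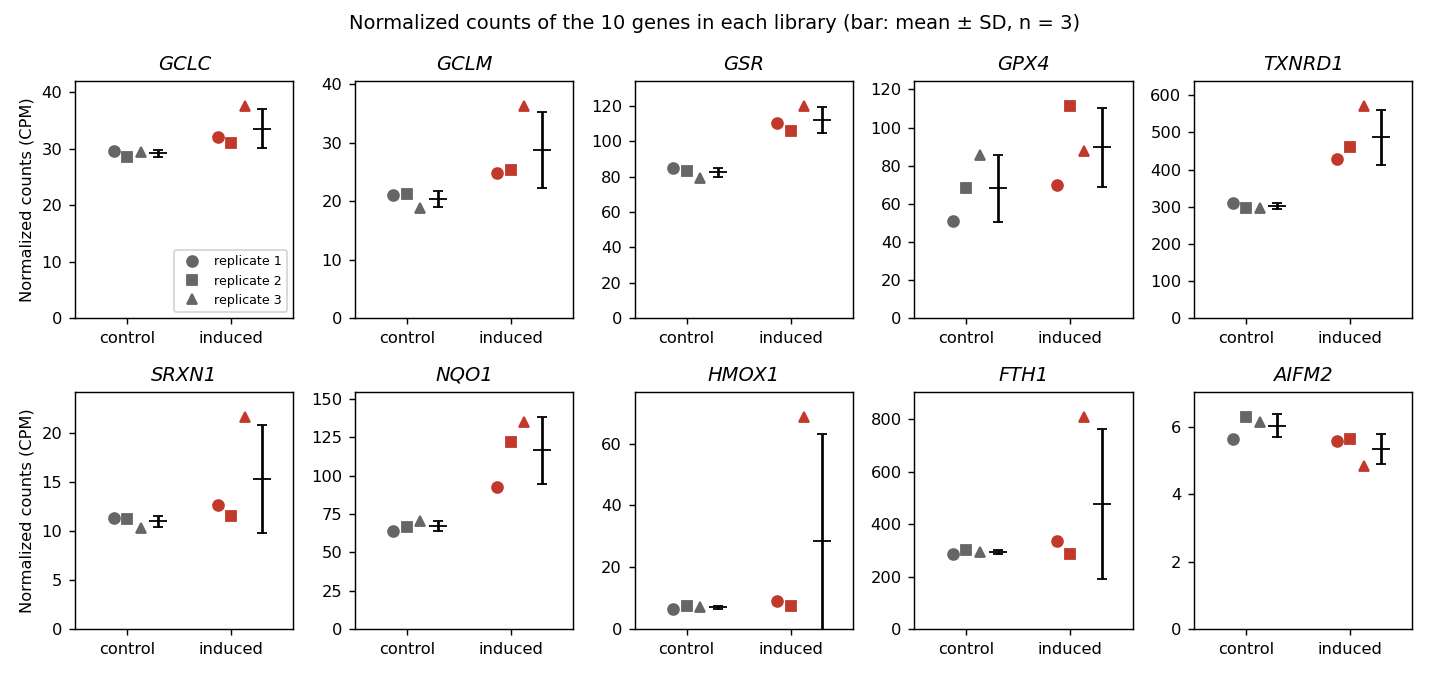
Normalized counts (CPM, linear axes from 0) of the 10 genes in the 3 control (grey) and 3 MYCN-induced (red) libraries, with symbols for replicates 1 to 3 and black bars for the mean ± SD (n = 3); the HMOX1 bar runs below 0 and is cut there. TXNRD1, GSR and NQO1 were higher in all 3 induced libraries, whereas HMOX1, FTH1 and SRXN1 stood high in induced replicate 3.

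TXNRD1 (ENSG00000198431.16, chromosome 12 of GRCh38 from 104215779 to 104350307, plus strand) encodes the cytosolic thioredoxin reductase, a selenoprotein that returns oxidized thioredoxin to its active form. It was at 310.0, 296.5 and 296.3 CPM in control replicates 1, 2 and 3 and at 428.6, 462 and 569.8 CPM in the induced replicates. Every induced library was above every control library, and the lowest rise was in induced replicate 1. The means were 300.9 ± 7.87 and 487 ± 73.8 CPM (SD, n = 3 each), a ratio of 1.62 and a log2 fold change of 0.69 (± 0.11 SE, edgeR adjusted p = 0.0180). Without MYCN-induced replicate 3 the log2 fold change was 0.57 (± 0.05 SE, edgeR adjusted p = 0.00298). Among 10156 other tested genes with a mean of at least 10 CPM, those nearest to TXNRD1 in their log2 levels relative to the control mean over the 6 libraries were RAB31, SYT14 and NAMPT, at Euclidean distances of 0.102, 0.124 and 0.141.

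TXNRD1 has alternative first exons, which the counts per gene do not separate. The RefSeq windows of GRCh38.p14 that run from 250 bases before to 50 bases after each annotated start were searched on both strands for the core of the antioxidant response element (TGACNNNGC), the E-box bound by MYC proteins (CACGTG) and the core of the element bound by ATF4 with C/EBP proteins (TGATGNAA). Windows were found for 7 of the 10 genes, not for GSR, HMOX1 or FTH1. The antioxidant response element core was found in 4 of the 10 windows of these genes, which belong to TXNRD1, GCLM and AIFM2, and in 13.3% of all 35116 windows. The E-box (7.26% of all windows) and the ATF4 element core (3.62%) were found in none of the windows of the 7 genes. The windows of the 3 genes with a match are shown with that of NQO1, which rose and has no match there, 5′ to 3′ on the strand of the gene and with the matched letters in capitals. A match on the opposite strand appears as its reverse complement. They lie at chr12:104215529-104215828 and chr12:104286782-104287081 for TXNRD1 (plus strand), chr1:93909381-93909680 for GCLM, chr10:70132776-70133075 for AIFM2 and chr16:69726511-69726810 for NQO1 (minus strand for these 3).
TXNRD1 upstream start: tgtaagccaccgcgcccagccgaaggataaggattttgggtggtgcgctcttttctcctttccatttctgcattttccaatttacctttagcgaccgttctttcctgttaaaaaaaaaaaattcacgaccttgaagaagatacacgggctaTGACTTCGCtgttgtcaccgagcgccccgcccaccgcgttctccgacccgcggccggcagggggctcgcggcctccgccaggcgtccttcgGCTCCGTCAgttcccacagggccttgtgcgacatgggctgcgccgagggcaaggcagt
TXNRD1 downstream start: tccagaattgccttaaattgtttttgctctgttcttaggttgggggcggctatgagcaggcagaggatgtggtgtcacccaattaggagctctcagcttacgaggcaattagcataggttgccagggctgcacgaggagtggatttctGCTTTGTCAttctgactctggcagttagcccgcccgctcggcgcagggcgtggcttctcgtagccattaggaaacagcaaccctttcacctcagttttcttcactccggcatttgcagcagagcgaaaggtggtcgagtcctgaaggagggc
GCLM: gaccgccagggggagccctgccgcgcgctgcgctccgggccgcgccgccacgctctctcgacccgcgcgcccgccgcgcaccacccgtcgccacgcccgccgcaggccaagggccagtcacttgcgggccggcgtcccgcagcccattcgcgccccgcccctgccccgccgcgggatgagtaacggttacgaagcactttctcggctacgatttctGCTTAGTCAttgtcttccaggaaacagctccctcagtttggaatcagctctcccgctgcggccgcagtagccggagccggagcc
AIFM2: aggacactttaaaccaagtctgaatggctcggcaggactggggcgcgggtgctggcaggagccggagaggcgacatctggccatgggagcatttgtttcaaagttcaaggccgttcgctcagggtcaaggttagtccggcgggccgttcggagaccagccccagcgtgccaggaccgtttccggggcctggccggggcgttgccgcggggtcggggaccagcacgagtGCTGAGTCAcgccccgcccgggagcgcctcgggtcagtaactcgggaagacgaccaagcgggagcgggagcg
NQO1: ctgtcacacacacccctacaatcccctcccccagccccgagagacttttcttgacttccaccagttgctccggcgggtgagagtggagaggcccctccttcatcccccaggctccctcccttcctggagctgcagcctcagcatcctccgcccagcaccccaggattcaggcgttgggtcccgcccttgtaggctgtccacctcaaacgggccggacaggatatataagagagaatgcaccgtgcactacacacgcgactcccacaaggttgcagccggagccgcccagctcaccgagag
The first bases of the matches lay 99 and 8 bases before the upstream TXNRD1 start, 102 bases before the downstream one, 34 before the GCLM start and 22 before the AIFM2 start. The genes with a match in these windows thus include TXNRD1, which rose, and AIFM2, which did not. These matches are letters in a window and were not measured as bound sites. Elements more than 250 bases before or 50 bases after a start lay outside the search, for NQO1 as for the others.

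NQO1 (ENSG00000181019.13, chromosome 16 of GRCh38 from 69706996 to 69726668, minus strand) encodes a quinone reductase and is among the most used readouts of NRF2 activity. It was at 63.9, 66.6 and 70.3 CPM in the controls and at 92.7, 122 and 135 CPM in induced replicates 1, 2 and 3. All induced libraries were above all controls, with replicate 1 the lowest of them. The means were 66.9 ± 3.24 and 116.5 ± 21.7 CPM (SD, n = 3 each), a ratio of 1.74 and a log2 fold change of 0.80 (± 0.13 SE, edgeR adjusted p = 0.0218), and 0.69 without MYCN-induced replicate 3 (edgeR adjusted p = 0.0181). NQO1 shares 575 of its 2971 exon bases with ENSG00000261602 on the opposite strand, whose level was 5.93 CPM in controls. Per the file headers the counting used no strand, and with the counts of both genes summed the log2 fold change was 0.78 (edgeR adjusted p = 0.0213).

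GSR (ENSG00000104687.14, chromosome 8 of GRCh38 from 30678066 to 30727846, minus strand) encodes glutathione reductase, which returns oxidized glutathione to its reduced form. It was at 84.6, 83.2 and 79.4 CPM in the controls and at 110.4, 105.5 and 119.6 CPM in the induced libraries. Its groups were apart by more than their spread, and its 3 induced values had a smaller spread relative to their mean than those of TXNRD1 or NQO1. The means were 82.4 ± 2.69 and 111.9 ± 7.17 CPM (SD, n = 3 each), a ratio of 1.36 and a log2 fold change of 0.44 (± 0.07 SE, edgeR adjusted p = 0.0206), and 0.40 without MYCN-induced replicate 3 (edgeR adjusted p = 0.00760).

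The calls of these 3 genes were lost when any 1 control library was left out, as were most calls over all genes. The 298 genes called higher with all libraries became 46, 18 and 30 without control replicates 1, 2 and 3. Without control replicates 1, 2 and 3 in turn, the adjusted p from edgeR was 0.0751, 0.114 and 0.0940 for TXNRD1, 0.0740, 0.133 and 0.110 for GSR and 0.102, 0.123 and 0.0910 for NQO1. GSR was also at 0.0688 without MYCN-induced replicate 1, and NQO1 at 0.0624 without MYCN-induced replicate 2. Their log2 fold changes stayed above 0 in each of these fits, between 0.57 and 0.79 for TXNRD1, 0.40 and 0.48 for GSR and 0.69 and 0.95 for NQO1.

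GCLM and GCLC, the regulatory and catalytic subunits of glutamate-cysteine ligase, did not pass the test. GCLM (ENSG00000023909.10, chromosome 1 of GRCh38 from 93885199 to 93909456, minus strand) was at 21.1, 21.2 and 18.9 CPM in the controls and at 24.8, 25.3 and 36.2 CPM in the induced libraries, so that the groups did not overlap. Its log2 fold change was 0.50 (± 0.15 SE, edgeR adjusted p = 0.129). It was 0.30 without MYCN-induced replicate 3 (edgeR adjusted p = 0.0512), and DESeq2, which called 3.11% of all tested genes higher, gave GCLM an adjusted p of 0.0453. GCLC (ENSG00000001084.13, chromosome 6 of GRCh38 from 53497341 to 53616970, minus strand) was at 29.6, 28.5 and 29.4 CPM in the controls and at 32.1, 31.1 and 37.5 CPM in the induced libraries. These values did not overlap either, but the induced level was only 1.15 times that of the controls (log2 fold change 0.20 ± 0.09 SE, edgeR adjusted p = 0.277).

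SRXN1, HMOX1 and FTH1 were high in induced replicate 3 and near the controls in the other induced libraries. SRXN1 (ENSG00000271303.2, chromosome 20 of GRCh38 from 646615 to 653200, minus strand), the sulfiredoxin that repairs overoxidized peroxiredoxins, was at 11.4, 11.3 and 10.3 CPM in the controls and at 12.7, 11.5 and 21.6 CPM in the induced libraries. Its log2 fold change was 0.48 (± 0.22 SE, edgeR adjusted p = 0.304) with all libraries and 0.15 without MYCN-induced replicate 3 (edgeR adjusted p = 0.333). Of its 2528 exon bases 2292 (90.7%) are shared with ENSG00000270299 on the same strand, at 11.05 CPM in controls, and the counting divided shared read pairs between both genes. Summed, the log2 fold change was 0.47 (edgeR adjusted p = 0.298).

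HMOX1 (ENSG00000100292.18, chromosome 22 of GRCh38 from 35380361 to 35394214, plus strand) encodes heme oxygenase 1, which breaks heme down to biliverdin, carbon monoxide and iron. It was at 6.35, 7.42 and 7.04 CPM in the controls and at 8.93, 7.51 and 68.5 CPM in the induced libraries. Induced replicate 3 was at 9.88 times the control mean, whereas the mean of induced replicates 1 and 2 was at 1.19 times. The log2 fold change was 2.03 (± 0.79 SE, edgeR adjusted p = 0.218), and 0.25 without MYCN-induced replicate 3 (edgeR adjusted p = 0.242). Neither value passed the test.

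FTH1 (ENSG00000167996.16, chromosome 11 of GRCh38 from 61959718 to 61967634, minus strand) encodes the heavy chain of ferritin, which oxidizes and stores iron. It was at 285.3, 301.6 and 293 CPM in the controls and at 335.7, 287.6 and 808.4 CPM in the induced libraries, and its groups overlapped. The log2 fold change was 0.70 (± 0.35 SE, edgeR adjusted p = 0.332), and 0.09 without MYCN-induced replicate 3 (edgeR adjusted p = 0.482). FTH1 shares 1267 of its 2004 exon bases (63.2%) with BEST1 on the opposite strand, and BEST1 was counted at 259, 255 and 244.8 CPM in controls and at 293.3, 259.9 and 665.4 CPM in induced libraries. Summed with BEST1, FTH1 had a log2 fold change of 0.69 (edgeR adjusted p = 0.319). The files also list 25 FTH1 pseudogenes with 13.4 CPM in sum, whose reads could come from FTH1.

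**Figure D2:**
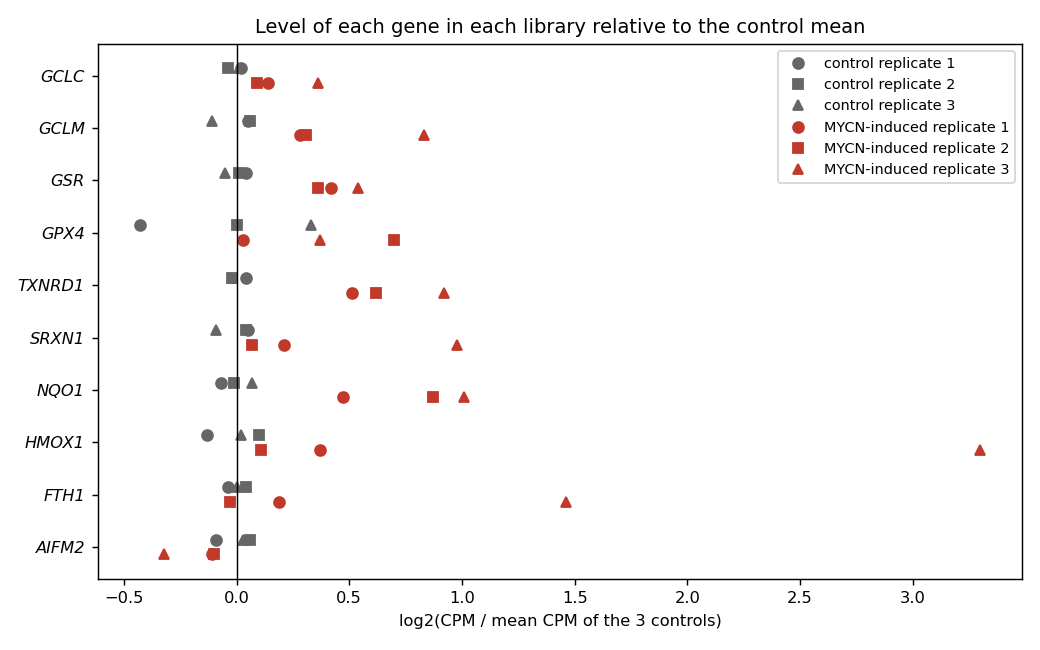
Level of each gene in each library as log2 of its CPM over the mean CPM of the 3 controls (x axis), with grey symbols for control and red for MYCN-induced libraries and shapes for replicates 1 to 3. Induced replicate 3 lay at 3.30 for HMOX1 and 1.46 for FTH1, against 0.37 and 0.19 in induced replicate 1 and 0.11 and -0.03 in induced replicate 2.

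Among the 10 genes, induced replicate 3 had the highest value of all 6 libraries for 8, compared with 25% of all tested genes. In TPM, which rescale each library to the same sum, the count was 4 of 10 and 8.2% of all tested genes, and the median of all genes in that library lay at -0.23 (log2) from the control mean. HMOX1, FTH1, SRXN1 and GCLM were highest in that library on both scales. In CPM, the median over the 10 genes, on the log2 scale relative to the control mean, was 0.24, 0.21 and 0.87 in induced replicates 1, 2 and 3 and between -0.01 and 0.03 in the controls. MYCN had its lowest induced value in replicate 3, at 198.5 CPM. SLC7A11, the cystine transporter that feeds glutathione synthesis, had the same order of induced libraries as HMOX1, with 86.9, 46.2 and 413 CPM in induced replicates 1, 2 and 3 and 14.9 to 16.8 CPM in controls. The part of this library's state in the values of the 10 genes was not tested.

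GPX4 and AIFM2, which protect membrane lipids from peroxidation, did not pass the test. GPX4 (ENSG00000167468.18, chromosome 19 of GRCh38 from 1103926 to 1106791, plus strand), the selenoprotein that reduces lipid peroxides, was at 50.7, 68.1 and 85.7 CPM in control replicates 1, 2 and 3 and at 69.8, 111 and 87.9 CPM in the induced libraries. Controls and induced libraries overlapped, and the controls alone spread over a wider relative range than for any other of the 10 genes (68.2 ± 17.5 CPM, SD, n = 3). The log2 fold change was 0.39 (± 0.22 SE, edgeR adjusted p = 0.384). It was 0.41 without MYCN-induced replicate 3.

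AIFM2 (ENSG00000042286.15, chromosome 10 of GRCh38 from 70098223 to 70132934, minus strand), also called FSP1, regenerates reduced coenzyme Q at membranes independently of glutathione. It was at 5.66, 6.29 and 6.16 CPM in the controls and 5.59, 5.64 and 4.84 CPM in the induced libraries, with no overlap, and was the only one of the 10 with a log2 fold change below 0 (-0.17 ± 0.11 SE, edgeR adjusted p = 0.471). AIFM2 shares 986 of its 5135 exon bases with MACROH2A2 on the opposite strand, which was at 84.3 CPM in controls. With both counts summed, a sum made up mostly of MACROH2A2, the log2 fold change was 0.09 (edgeR adjusted p = 0.688), opposite in direction. In TPM the groups overlapped, with 1.83, 2.01 and 1.34 in induced and 1.88 to 2.00 in control libraries.

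**Figure D3:**
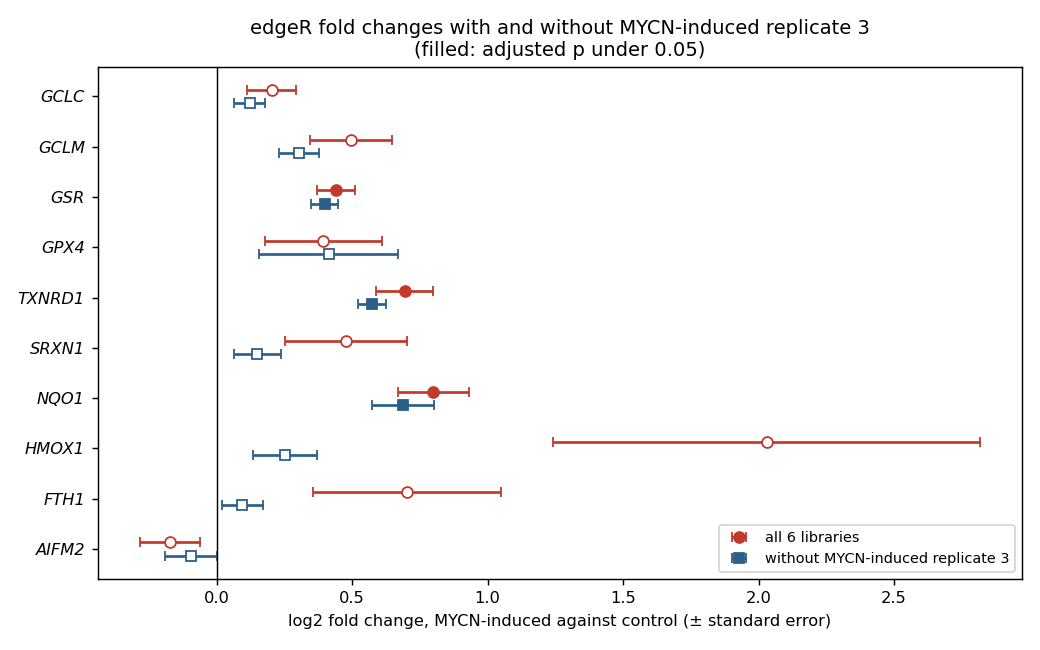
Log2 fold change of MYCN-induced against control cells (x axis, ± standard error) from edgeR for the 10 genes, with all 6 libraries (red circles) and without MYCN-induced replicate 3 (blue squares), filled where the adjusted p was under 0.05. TXNRD1, GSR and NQO1 are filled in both fits, and HMOX1 moved from 2.03 to 0.25.

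In TPM, which divide counts by exon length, FTH1 was the most abundant of the 10 genes in control cells at 240.3 ± 9.90 TPM (SD, n = 3). By the counting without a strand that the file headers give, BEST1 would have taken part of the FTH1 pairs, which was not tested. TXNRD1 (73.7 ± 5.61 TPM), GPX4 (55.0 ± 11.5 TPM), GSR (37.6 ± 3.07 TPM) and NQO1 (37.0 ± 0.341 TPM) came next, of which GSR and NQO1 did not differ beyond their spread. SRXN1 (7.14 ± 0.717 TPM), GCLM (6.18 ± 0.662 TPM) and GCLC (5.56 ± 0.342 TPM) were close together, with overlapping control values between neighbors. The SRXN1 value depends on the counting, which divided pairs with ENSG00000270299 over 90.7% of its exon bases. Its place beside GCLM and GCLC is therefore uncertain. HMOX1 was at 4.93 ± 0.275 TPM and AIFM2 at 1.93 ± 0.0630 TPM (SD, n = 3 each). RNA of GSR and TXNRD1, which reduce glutathione and thioredoxin, was thus more abundant per length than RNA of GCLC and GCLM. Protein was not measured here. In induced cells NQO1 reached 64.1 ± 11.4 TPM against 50.8 ± 3.34 TPM for GSR, as values on the same scale. On this scale GSR was at 47.2 TPM in induced replicate 3, below 51.6 and 53.7 TPM in induced replicates 1 and 2.

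The wider pathway was described with 180 further genes in 9 lists, also chosen with earlier results of these data known, of which 161 were tested. Of these, 4 rose and 3 fell at an adjusted p under 0.05 from edgeR, where 1.02% and 2.38% of all tested genes did. Of the 161, 114 had a log2 fold change above 0, with a median of 0.10 against 0.00 over all tested genes. The 4 that rose were SLC7A11, CBS, GCH1 and SLC39A14, and the 3 that fell were GGT5, GPX3 and CP. Without MYCN-induced replicate 3, 21 rose and 9 fell, where 3.68% and 4.44% of all tested genes did. Without control replicates 1, 2 or 3, none rose and 2, 1 and 1 fell. Of the 28433, 28577 and 28438 genes tested in these fits, 46, 18 and 30 rose and 181, 72 and 135 fell. Without MYCN-induced replicate 1, 1 rose and 1 fell (73 and 216 over all genes). Without MYCN-induced replicate 2, 4 rose and 1 fell (169 and 297 over all genes).

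**Figure D4:**
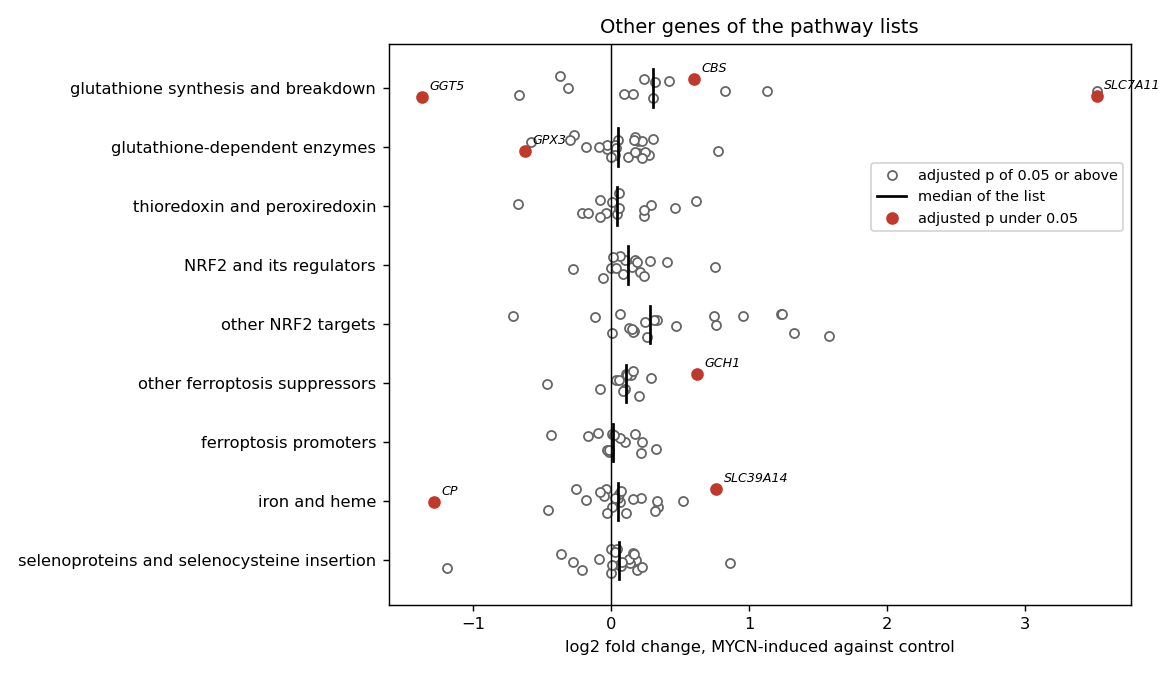
Log2 fold change of MYCN-induced against control cells (x axis) for the 161 tested genes of the 9 pathway lists apart from the 10 genes, with red points and names for an adjusted p under 0.05 from edgeR and black lines for the list medians. The medians run from 0.01 for the ferroptosis promoters to 0.30 for glutathione synthesis and breakdown.

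In glutathione synthesis and breakdown, 2 of 15 tested genes rose and 1 fell (1.02% and 2.38% of all tested genes). The median log2 fold change was 0.30. SLC7A11 had a log2 fold change of 3.52 (± 0.75 SE, edgeR adjusted p = 0.0494) and 2.07 without MYCN-induced replicate 3 (edgeR adjusted p = 0.00564). Its call was lost with a minimum of 100 counts in every library (0.0690). It shares 865 exon bases with SLC7A11-AS1 on the opposite strand. CBS, which condenses homocysteine with serine on the way to cysteine, rose from 18.6, 20.5 and 22.3 CPM to 28.6, 28.9 and 35.4 CPM (log2 fold change 0.60 ± 0.11 SE, edgeR adjusted p = 0.0360). GGT5, a gamma-glutamyl transferase that cleaves glutathione conjugates outside the cell, fell from 1.09, 1.39 and 1.57 CPM to 0.508, 0.418 and 0.637 CPM (log2 fold change -1.37 ± 0.22 SE, edgeR adjusted p = 0.0206). CHAC1, which degrades glutathione in the cytosol and was chosen here after its values were seen, was at 10.9, 4.16 and 58.4 CPM in the induced libraries against 1.88 to 2.46 CPM in controls (edgeR adjusted p = 0.0790). Its log2 fold change was 3.52, and 1.81 without MYCN-induced replicate 3 (edgeR adjusted p = 0.0328). DESeq2 gave CHAC1 an adjusted p of 0.0108, whereas edgeR gave 0.287 without control replicate 2. GSS, the enzyme of the step after glutamate-cysteine ligase and named for that role, had a log2 fold change of 0.155 (edgeR adjusted p = 0.525). With 1 library left out at a time, the edgeR adjusted p ran from 0.00564 to 0.219 for SLC7A11, 0.0254 to 0.181 for CBS and 0.0136 to 0.112 for GGT5, each highest without control replicate 2.

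The glutathione-dependent enzymes include peroxidases, glutaredoxins and glutathione transferases. Of 25 tested, 0 rose and 1 fell at an adjusted p under 0.05 from edgeR (1.02% and 2.38% of all tested genes). At an unadjusted p under 0.05, 7 were higher and 5 lower (8.13% and 10.6% of all tested genes). GPX3, a secreted glutathione peroxidase, fell from 4.06, 3.75 and 3.79 CPM to 2.696, 2.67 and 2.17 CPM (log2 fold change -0.62 ± 0.13 SE, edgeR adjusted p = 0.0443; 0.0266 to 0.195 with 1 library left out at a time, highest without control replicate 2). Its call was lost with library size only (0.0614). In the thioredoxin and peroxiredoxin list 0 of 15 genes passed with edgeR (3 higher and 1 lower at an unadjusted p under 0.05, against 8.13% and 10.6% of all tested genes). The smallest p-values there belonged to PRDX4, the peroxiredoxin of the endoplasmic reticulum (log2 fold change 0.61 ± 0.13 SE, edgeR adjusted p = 0.0510), and TXN, the thioredoxin that TXNRD1 reduces (log2 fold change 0.29 ± 0.07 SE, edgeR adjusted p = 0.0578). DESeq2 put both past the threshold, at 0.00205 and 0.00911.

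NRF2 and its regulators did not pass the test in any of 16 genes with edgeR (2 higher and 1 lower at an unadjusted p under 0.05, against 8.13% and 10.6% of all tested genes). NFE2L2, the gene of NRF2, was at 149, 142.8 and 139.8 CPM in controls and at 155.7, 142.6 and 188.5 CPM in induced libraries, with overlapping groups (log2 fold change 0.17, edgeR adjusted p = 0.434). KEAP1 was at 0.09 (edgeR adjusted p = 0.640). The 2 smallest p-values were those of AMER1, a protein that can bind KEAP1 (log2 fold change -0.28, adjusted p = 0.0937), and SQSTM1, a carrier for autophagy that binds KEAP1 (0.75, adjusted p = 0.200), both from edgeR. SQSTM1 was at 68.3, 71.2 and 144 CPM in the induced libraries and 50.7 to 65.3 CPM in controls, again highest in replicate 3. NFE2L2 and KEAP1 were named for their roles and not by rank.

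Of the 20 other NRF2 targets tested, 0 passed at an adjusted p under 0.05 from edgeR, 8 were higher and 0 lower at an unadjusted p under 0.05 (8.13% and 10.6% of all tested genes), and 18 had a log2 fold change above 0, with a median of 0.28. Induced replicate 3 had the highest of the 6 values for 16 of them, and 9 of them in TPM. PGD, an NADPH-producing enzyme of the pentose phosphate pathway, was at 138 to 145 CPM in controls and at 160.4, 161.8 and 178 CPM in the induced libraries (log2 fold change 0.24, edgeR adjusted p = 0.1002). ABCC2, an exporter of glutathione conjugates, was at 9.51 to 10.8 CPM in controls and at 16.8, 15.7 and 58.4 CPM in the induced libraries (log2 fold change 1.58, edgeR adjusted p = 0.127; 0.69 and 0.00747 without MYCN-induced replicate 3). AKR1C1, an aldo-keto reductase chosen here after its values were seen, was at 11.3, 10.95 and 47.6 CPM against 8.74 to 9.76 CPM (edgeR adjusted p = 0.237). The median of this list was 0.18 without MYCN-induced replicate 3, where 2 of the genes passed the test, both higher (3.68% of all tested genes).

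Among the other ferroptosis suppressors, 1 of 13 tested genes rose and 0 fell (1.02% and 2.38% of all tested genes). GCH1, the first enzyme of tetrahydrobiopterin synthesis, was at 3.77, 3.83 and 3.81 CPM in controls and at 5.19, 6.92 and 5.46 CPM in induced libraries (log2 fold change 0.62 ± 0.13 SE, edgeR adjusted p = 0.0499). Its call lay at the threshold and was lost with library size only (0.0798), upper-quartile normalization (0.0582) and a minimum of 100 counts in every library (0.0566). With 1 library left out at a time, it was between 0.0295 and 0.226 (edgeR adjusted p), highest without control replicate 2.

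In the iron and heme list, 1 of 22 tested genes rose and 1 fell (1.02% and 2.38% of all tested genes). CP, ceruloplasmin, a copper enzyme that oxidizes iron for export, fell from 9.41, 9.85 and 8.73 CPM to 3.997, 4.10 and 3.37 CPM (log2 fold change -1.29 ± 0.12 SE, edgeR adjusted p = 0.00370) and passed in every fit that left out 1 library (adjusted p of at most 0.0358 from edgeR). CP shares 1420 of its 7072 exon bases (20.1%) with HPS3 on the opposite strand, which had a mean of 1900.9 counts per library. No fit summed the 2 genes, and the part of HPS3 in the CP counts was not tested. SLC39A14, a zinc and iron importer, rose from 52.8, 51.7 and 49.1 CPM to 80.6, 77.9 and 102 CPM (log2 fold change 0.76 ± 0.11 SE, edgeR adjusted p = 0.0142; 0.00230 to 0.0954 with 1 library left out at a time, highest without control replicate 2). FTL, the light chain that forms ferritin together with FTH1, was at 694.6, 608.8 and 1101 CPM in the induced libraries and 618 to 659 CPM in controls, with overlapping groups (edgeR adjusted p = 0.417). TFRC, the transferrin receptor, had a log2 fold change of 0.07 (edgeR adjusted p = 0.7997). FTL and TFRC were named as the partner of FTH1 and the main iron importer, not by rank.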

How the data were processed

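SK-N-AS cells with inducible MYCN gave 6 libraries, grouped by their titles. The authors deposited estimated counts per gene, made from unique STAR alignments on GRCh38. Per the file headers, featureCounts 1.6.4 counted read pairs over exons without a strand option and divided pairs shared by several genes in equal parts, whereas the submitters' processing notes name version 1.5.1 and the study's methods describe strand-specific counting that included multi-mapped reads. The headers were followed here, and which setting made the values of genes overlapping on opposite strands was not tested. Counts were rounded, and genes reaching 10 counts in 3 or more libraries were tested together with edgeR 4.0.16 in R 4.3.3 (TMM, quasi-likelihood test, Benjamini-Hochberg adjustment, threshold 0.05, no replicate block). The standard error is the log2 fold change divided by the square root of F. CPM are TMM-normalized, and TPM used the deposited exon lengths. Of 60651 identifiers, 99.72% matched a symbol, and 92 spike-in sequences had 0 counts. Counting noise was small at 64500589 to 102249336 pairs, and the biological coefficient of variation was 0.153.

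The study describes the 3 replicates as independent experiments. The members and lists were chosen with earlier results of these data known. Named are the 10 members, MYCN, SLC7A11, in each list the genes past the threshold (at most 4 each way) or else the 2 with the smallest p-values, and the 3 genes nearest to the member with the smallest p-value, by log2(CPM + 0.1). Other names are marked as such. The test was checked on counts simulated for 29086 genes in this comparison, where 194 of 200 genes changed 2-fold, and 8 unchanged genes, were called. Smaller changes were not simulated. Every simulated gene had the same dispersion, and no simulated library stood apart as induced replicate 3 did. The share recovered in the real data is therefore not known from this check. Alternatives were library size only, DESeq2 1.42.0, upper-quartile scaling, testing without the count filter, a floor of 100 counts per library, a replicate block, thresholds of 0.01 and 0.1, and leaving out each library.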

Additional observations from a re-analysis of the deposited data

How the results depend on the processing

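Of the alternatives, the sum with an overlapping gene was chosen after seeing the data. The count of 3 members higher moved to 0 at an adjusted p under 0.01 and ran from 0 to 3 over the fits that left out 1 library. The count of members lower was 0 throughout. The members' median log2 fold change ran from 0.278 to 0.613 over those fits. The other pathway genes called higher, 4 as reported, were 13 with DESeq2, 8 without a count filter, 2 with at least 100 counts in every library, 2 with the replicate block, 0 at 0.01 and 12 at 0.1, and 0 to 21 without 1 library. Those called lower, 3 as reported, were 6 with DESeq2, 1 at 0.01, 6 at 0.1 and 1 to 9 without 1 library. Direction changed for AIFM2, to 0.087 summed with MACROH2A2, and with 1 library left out for TFRC (-0.031 to 0.181), HAND2 (-0.057 to 0.263) and GATA3 (-0.019 to 0.21), none of which passed the test. Over all genes, 298 higher and 692 lower became 904 and 1199 with DESeq2, 470 and 811 without a count filter, 18 to 1060 and 72 to 1279 without 1 library. DESeq2 gave HMOX1 no adjusted p. The replicate block called 265 higher and 575 lower, with the same 3 members (adjusted p from edgeR of 0.0258 for TXNRD1, 0.0427 for GSR and 0.0148 for NQO1), and lost SLC7A11 (0.0551), GPX3 (0.0607) and GCH1 (0.0645). Same-numbered libraries had correlations of their deviations of 0.299, 0.006 and 0.09, and libraries of unlike number from -0.272 to 0.1. The control of the same number correlated best with induced replicates 1 and 3, but not with induced replicate 2. Whether control and induced libraries were paired by number cannot be told from these values.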

Other observations

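Selenoproteins other than those above, with the factors that insert selenocysteine, did not pass the test in any of 21 genes with edgeR (2 higher and 2 lower at an unadjusted p under 0.05, against 8.13% and 10.6% of all tested genes), and their median log2 fold change was 0.05. DIO3, which inactivates thyroid hormone, was at 1.02, 1.27 and 1.82 CPM in controls and at 0.786, 0.526 and 0.507 CPM in induced libraries (log2 fold change -1.20 ± 0.27 SE, edgeR adjusted p = 0.0592). LRP8, a receptor that takes up selenoprotein P, was at 61.9 to 68.9 CPM in controls and at 76.8, 74.2 and 76.3 CPM in induced libraries (log2 fold change 0.22 ± 0.07 SE, edgeR adjusted p = 0.127).

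Of the genes that promote ferroptosis, 0 of 14 tested genes passed with edgeR (2 higher and 1 lower at an unadjusted p under 0.05, against the same shares), with a median log2 fold change of 0.01. The list includes genes that supply or oxidize polyunsaturated membrane lipids. ACSL4, which activates polyunsaturated fatty acids for membrane lipids, was at 33.6 to 36.1 CPM in controls and at 40.99, 48.5 and 41.1 CPM in induced libraries (log2 fold change 0.32 ± 0.09 SE, edgeR adjusted p = 0.0996; 0.0397 without MYCN-induced replicate 3). VDAC2, a channel of the outer mitochondrial membrane, had a log2 fold change of 0.21 (± 0.06 SE, edgeR adjusted p = 0.105; 0.0350 without MYCN-induced replicate 3). Neither gene was highest in induced replicate 3.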
